A study of Mus musculus with 24 samples.

Results

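The SLC25 family is the set of mitochondrial carriers, membrane proteins that exchange nucleotides, phosphate, metabolites, cofactors and metals between the mitochondrial matrix and the cytosol. Its members here are all rows of the count table whose Ensembl identifier maps to a mouse symbol beginning with Slc25a. The table held 39 such genes among 12615 in all, and all 39 passed the filter on low counts that kept 12485 genes. The annotation lists 48 Slc25a symbols, and the other 9 (Slc25a2, Slc25a18, Slc25a29, Slc25a31, Slc25a41, Slc25a43, Slc25a53, Slc25a54 and the pseudogene Slc25a5-ps) were not analysed here.

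Carriers share a fold in which a matrix-facing and a cytosol-facing state alternate around a single substrate site. In brown fat, which burns fatty acids to make heat, acylcarnitines enter the matrix through a carrier of this family, and the heat-producing proton leak itself runs through UCP1, a protein of the same fold that bears another symbol. Other members export citrate for fatty acid synthesis, supply the matrix with coenzyme A, NAD and glutathione, or exchange ADP for ATP.

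RNA of tissue labelled brown fat was sequenced from 24 mice in 4 groups of 6 mice. All groups carried floxed alleles of TBLR1 and TBL1, subunits of a transcriptional corepressor complex. BATdKO mice also carried Ucp1CreERT2, a Cre recombinase under the Ucp1 promoter that acts in thermogenic adipocytes once tamoxifen is given, and Cre- controls lacked it. Both genotypes received tamoxifen, which the labels date at 5 years of age and the study's methods at 5 weeks, and entered the temperature protocol 3 weeks after the last dose. Mice raised at 22°C were kept at 30°C for 4 days or, after a stepwise lowering of the temperature, at 8°C for 6 days per the labels, which describe females. The study's text gives another length for the cold. For the mice of its RNA sequencing it gives the other sex and fewer mice per group. Its methods state that outliers were removed after quality control, without naming them. The labels are followed here, and all 24 libraries are kept. The libraries of each temperature were numbered in a separate run in the labels, so that temperature and library handling cannot be told apart.

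Depth ranged from 699703 counts in mouse m4 labelled Cre- at 30°C to 11527643 counts (median 6644364.5). Levels are given as CPM, the counts of a gene scaled to a normalized library size of 1e6. A transcript of any length yields its tag at the 3′ end with this kit, and CPM can be set side by side between genes.

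The genes targeted by the deletion did not follow the labels. At 8°C Tbl1xr1, which encodes TBLR1, had a mean of 39.8 CPM in libraries labelled BATdKO and 20.9 CPM in those labelled Cre- (log2 fold change 0.92, SE 0.17, adjusted p = 0.00348 in edgeR). Tbl1x had 53.8 and 40.7 CPM (log2 fold change 0.39, SE 0.10, adjusted p = 0.0633). At 30°C Tbl1xr1 ran from 16.4 to 24.6 CPM in mice m1 to m5 labelled Cre- and reached 38.6 CPM in m6. In mice m1 to m5 labelled BATdKO it ran from 29.8 to 42.0 CPM and was 17.0 CPM in m6 (log2 fold change between labels 0.44, SE 0.17, adjusted p = 0.360 over all 12 mice). Tbl1x at 30°C ran from 31.4 to 45.6 CPM in mice m1 to m5 labelled Cre- and was 53.5 CPM in m6. In mice m1 to m5 labelled BATdKO it ran from 53.4 to 59.9 CPM and was 39.7 CPM in m6 (log2 fold change between labels 0.35, SE 0.11, adjusted p = 0.205 in edgeR). For both genes each m6 mouse thus lay within the range of m1 to m5 of the other label. Whether the labels of the m6 mice were exchanged was not tested. Every value at 30°C, every change with temperature and the difference of these changes depend on it. The deleted exons are not given in the sources used here, and tags at the 3′ end may lie outside them. This check may therefore not show their loss, and the cause of the higher levels under the BATdKO label at 8°C was not tested. Mice are therefore named by their label throughout, and every genotype direction below is one between labels.

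The tissue label was checked against marker genes. All 12 brown adipocyte markers were in the table, and their summed level ranged from 749 to 4430 CPM in libraries labelled Cre- at 30°C, 1310 to 4271 CPM in BATdKO at 30°C, 2828 to 5242 CPM in Cre- at 8°C and 3268 to 6301 CPM in BATdKO at 8°C. All 12 hepatocyte markers were also present, at 35402 to 51431 CPM, with a coefficient of variation of 8.62% over the 24 libraries. Alb alone, the albumin gene of hepatocytes, averaged 9303 to 11343 CPM in the 4 groups, whereas Ucp1 averaged 177 to 1685 CPM. The sum of 12 skeletal muscle genes ran from 8.61 to 12407 CPM. The part of RNA from other tissues in the carrier levels was not tested, and in bulk RNA fewer cells of a type and less RNA per cell cannot be told apart.

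Slc25a39, which imports glutathione into mitochondria, was the highest at a mean of 362 CPM over all libraries (272.9 to 436 CPM). It was followed by Slc25a47 at 165 CPM, the phosphate carrier Slc25a3 at 157 CPM, the NAD carrier Slc25a51 at 130.5 CPM, the citrate carrier Slc25a1 at 129 CPM, the aspartate/glutamate carrier Slc25a13 at 123 CPM, the ADP/ATP carrier Slc25a4 at 116 CPM and the ornithine carrier Slc25a15 at 104 CPM. These 8 genes held 64.5% of the summed CPM of the family. A further 17 members lay between 10 and 100 CPM and 14 lay under 10 CPM, of which Slc25a14, Slc25a24, Slc25a26 and Slc25a27 were under 3 CPM. In the shallowest library, where 1 count is 1.37 CPM, the last 3 of these had 0 counts, which allows a level of up to 4.10 CPM and covers counting error only.

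**Figure D1:**
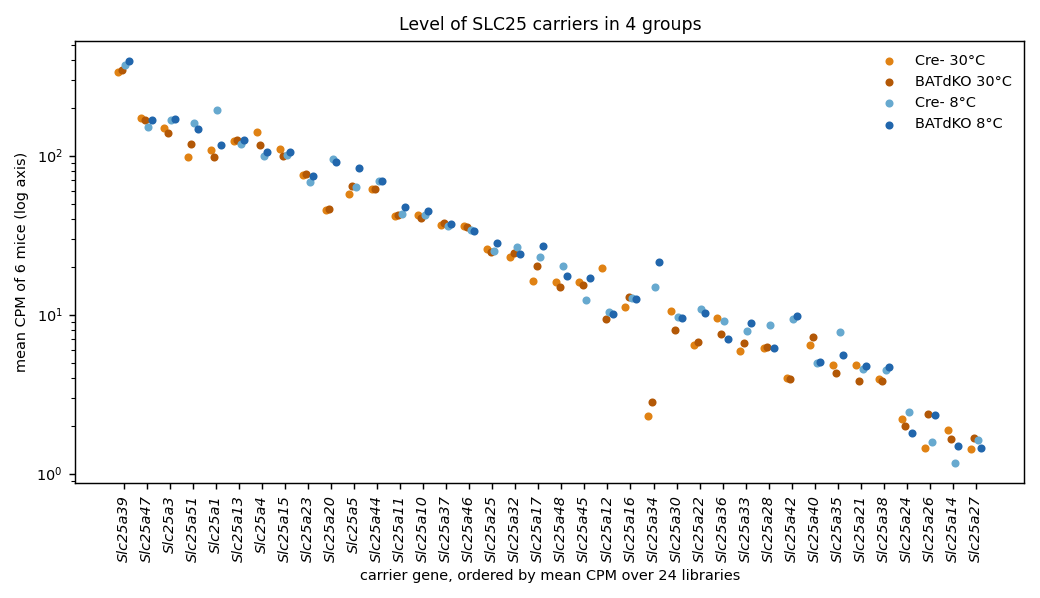
Mean CPM of 6 mice on a log axis for the carriers, ordered by the mean over 24 libraries, with 1 dot for each group. The dots of most genes nearly coincide. Among those that are spread are Slc25a34, Slc25a20 and Slc25a42, with the libraries from 8°C on top. Slc25a1 is spread with the Cre- libraries at 8°C on top, and Slc25a12 with the Cre- libraries at 30°C on top.

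The members varied unequally over the 24 libraries. Slc25a23, an ATP-Mg/phosphate carrier, had the lowest coefficient of variation, 9.00%, and the branched-chain amino acid carrier Slc25a44 and the outer membrane protein Slc25a46 each had 10.1%. Slc25a34 had the highest, 88.7%, followed by Slc25a12 at 71.8% and Slc25a42 at 56.2%. Slc25a47, known for its expression in liver, had 14.5%, with 124 CPM at its lowest and 210.4 CPM at its highest. Slc25a13 and Slc25a15, which serve the urea cycle in liver, had 10.9% and 11.0%. These levels of liver-known carriers stood beside the hepatocyte markers given above, and their source was not tested.

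Single libraries stood apart. Mouse m6 labelled BATdKO at 30°C had the lowest level of all 24 libraries for 9 members, among them Slc25a3, Slc25a4, Slc25a5, Slc25a20, Slc25a34, Slc25a42 and Slc25a51, and the highest for 5 members, Slc25a13, Slc25a32, Slc25a37, Slc25a47 and Slc25a48. Its summed brown adipocyte markers were 1310 CPM, the lowest of its group, and its Ucp1 level was 84.7 CPM. Mouse m6 labelled Cre- at 30°C had the highest sum of its group, 4430 CPM, and a Ucp1 level of 548 CPM. Mice m1 and m3 labelled Cre- at 30°C held the highest muscle sums of all, 5732 and 12407 CPM. Of these, m3 also had the lowest brown adipocyte sum of all 24 libraries, 749 CPM, with a Ucp1 level of 28.9 CPM. For m1 the values were 2340 and 130 CPM. Where leaving out both m6 mice, or mice m1 and m3 labelled Cre-, changed whether a member passed, the value without them is given below. Both pairs were picked from these same data, so calls gained or lost without them are no independent support.

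The comparison of 8°C with 30°C asks which carriers follow the thermogenic state of the tissue. Under the Cre- label 9 of 39 members passed an adjusted p of 0.1, against 9.15% of all genes tested. Of these, 7 rose (Slc25a34, Slc25a42, Slc25a20, Slc25a35, Slc25a1, Slc25a51 and Slc25a17; 5.57% of all genes rose) and 2 fell (Slc25a12 and Slc25a14; 3.59% of all genes fell). Under the BATdKO label 5 members passed, against 7.07% of all genes, with 4 higher (Slc25a34, Slc25a42, Slc25a20 and Slc25a17; 3.76% of all genes) and Slc25a40 lower (3.31% of all genes). These 4 rose under both labels, as did 2.19% of all genes. The median log2 fold change of the 39 members was 0.02 under the Cre- label and 0.16 under the BATdKO label, beside -0.02 and -0.00 for all genes. The summed level of the family ran from 1784 to 1999 CPM (median 1895) in libraries labelled Cre- at 30°C, from 1779 to 1932 CPM (median 1880) in BATdKO at 30°C, from 1999 to 2269 CPM (median 2098) in Cre- at 8°C and from 2072 to 2163 CPM (median 2105) in BATdKO at 8°C.

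The bases upstream of these 4 genes are printed because their levels moved together. They come from RefSeq (build GRCm38.p6), read 5′ to 3′ on the strand of the gene, start 250 bases before the RefSeq start site and end before the gene as GENCODE annotates it. Slc25a34 is at chr4:141618824-141623821 on the minus strand, with the printed stretch at chr4:141623835-141624084. Slc25a20 is at chr9:108662088-108684641 on the plus strand, with the stretch at chr9:108661886-108662087. Slc25a42 is at chr8:70184340-70212305 on the minus strand, with the stretch at chr8:70212306-70212531. Slc25a17 is at chr15:81318911-81360812 on the minus strand, with the stretch at chr15:81360813-81361015. Capitals mark the nuclear receptor element AGGTCA on either strand.
Slc25a34: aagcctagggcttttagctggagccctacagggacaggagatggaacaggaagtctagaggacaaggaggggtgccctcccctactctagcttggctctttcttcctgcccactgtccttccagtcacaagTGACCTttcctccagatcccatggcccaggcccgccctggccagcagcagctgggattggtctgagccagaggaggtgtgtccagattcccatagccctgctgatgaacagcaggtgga
Slc25a20: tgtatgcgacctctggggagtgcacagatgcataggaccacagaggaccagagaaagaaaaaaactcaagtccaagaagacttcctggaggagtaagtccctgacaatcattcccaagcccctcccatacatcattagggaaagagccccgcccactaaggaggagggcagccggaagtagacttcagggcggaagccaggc
Slc25a42: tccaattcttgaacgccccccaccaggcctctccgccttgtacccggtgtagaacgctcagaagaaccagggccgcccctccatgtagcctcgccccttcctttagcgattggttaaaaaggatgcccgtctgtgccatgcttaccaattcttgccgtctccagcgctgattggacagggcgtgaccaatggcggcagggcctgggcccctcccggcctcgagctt
Slc25a17: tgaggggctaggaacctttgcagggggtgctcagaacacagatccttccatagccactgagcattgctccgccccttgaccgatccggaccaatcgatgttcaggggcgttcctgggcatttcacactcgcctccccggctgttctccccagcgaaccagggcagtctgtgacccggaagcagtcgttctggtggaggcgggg

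Motifs were searched on both strands of all RefSeq promoter windows, 250 bases before to 50 after the start site, which cover 30 of the 39 members. The element AGGTCA, read as TGACCT in Slc25a34 at 119 bases before the start, was in 16.3% of 32851 promoters. Counted by gene, it was in 15.7% of the genes tested here that had a window and in 4 of the 30 members (Slc25a34, Slc25a39, Slc25a45 and Slc25a47). Its letters are also part of TCAAGGTCA, the ERR element, found in 0.423% of promoters and no member, and of the DR1 element, a direct repeat of AGGTCA with 1 base between, found in 0.0396% and no member. The cAMP response element TGACGTCA was in 1.79% of promoters. Counted by gene, it was in 3.49% of the genes tested here that had a window and in 2 of the 30 members. These were Slc25a25 and Slc25a36, neither of which passed the test in any comparison. None of these letters stood in the windows of Slc25a17, Slc25a20 and Slc25a42. Windows for 9 members, among them Slc25a26, Slc25a27, Slc25a32, Slc25a35, Slc25a37, Slc25a44, Slc25a46 and Slc25a51, were not used here.

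Slc25a34, a carrier whose substrate is not settled, had the largest change with temperature of the 39 members. Under the Cre- label it had 1.15 CPM in the lowest, 2.33 in the median and 3.60 in the highest mouse at 30°C, and 9.53, 14.9 and 19.4 CPM at 8°C. Under the BATdKO label it had 0.751, 2.81 and 4.92 CPM at 30°C and 14.8, 18.2 and 34.0 CPM at 8°C. Every mouse at 8°C was above every mouse at 30°C under both labels, and groups without overlap were found for 2.93% of all genes in the Cre- and 2.99% in the BATdKO comparison. The log2 fold change was 2.63 (SE 0.29, adjusted p = 1.15e-06) under the Cre- label and 2.87 (SE 0.28, adjusted p = 2.74e-07) under the BATdKO label by edgeR, or 6.17-fold and 7.30-fold. The difference between both changes was 0.24 on the log2 scale (95% interval -0.58 to 1.07, adjusted p = 0.937 in edgeR). The exact permutation test gave p = 0.0021645 (two-sided, n = 6 per group) under either label, the smallest p that 6 against 6 mice allow.

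Slc25a20, which exchanges carnitine for acylcarnitines and so brings fatty acids to β-oxidation, about doubled. It had 33.5 CPM in the lowest, 43.5 in the median and 63.3 in the highest mouse labelled Cre- at 30°C, and 71.9, 98.5 and 119.5 CPM at 8°C. With the BATdKO label it had 27.3, 48.1 and 58.9 CPM at 30°C and 70.9, 92.0 and 117 CPM at 8°C. The groups did not overlap under either label. Its log2 fold change was 1.06 (SE 0.17, adjusted p = 0.000106 in edgeR) under the Cre- label and 0.98 (SE 0.17, adjusted p = 0.000439) under the BATdKO label.

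Slc25a42 and Slc25a17 carry coenzyme A, the former across the inner mitochondrial membrane and the latter, together with FAD and NAD, across the peroxisomal membrane. Slc25a42 ranged from 2.07 to 6.38 CPM (median 4.09) in libraries labelled Cre- at 30°C and from 5.52 to 12.4 CPM (median 9.36) at 8°C. In libraries labelled BATdKO it ranged from 1.95 to 6.20 CPM (median 3.66) at 30°C and from 4.78 to 15.3 CPM (median 9.92) at 8°C. The ranges overlapped under both labels, and the log2 fold changes were 1.21 (SE 0.30, adjusted p = 0.0129 in edgeR) and 1.28 (SE 0.30, adjusted p = 0.0120). Slc25a17 had a smaller change, 0.46 (SE 0.11, adjusted p = 0.0126 in edgeR) under the Cre- label and 0.41 (SE 0.11, adjusted p = 0.0322) under the BATdKO label. It ran from 13.7 to 23.0 CPM (median 15.1) in libraries labelled Cre- at 30°C and from 19.4 to 28.8 CPM (median 22.1) at 8°C. The BATdKO mice had 18.3 to 22.4 CPM (median 20.1) at 30°C and 23.3 to 33.1 CPM (median 26.8) at 8°C, with no overlap. The highest Cre- value of Slc25a17 at 30°C came from mouse m6, and without both m6 mice its log2 fold change under the Cre- label was 0.60 (adjusted p = 0.000249 in edgeR). Leaving out the highest mouse at 30°C was bound to enlarge this rise, so the latter value is no independent support for it. Without mice m1 and m3 labelled Cre- at 30°C Slc25a17 no longer passed under that label (adjusted p = 0.134 in edgeR), whereas Slc25a34, Slc25a20 and Slc25a42 did.

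**Figure D2:**
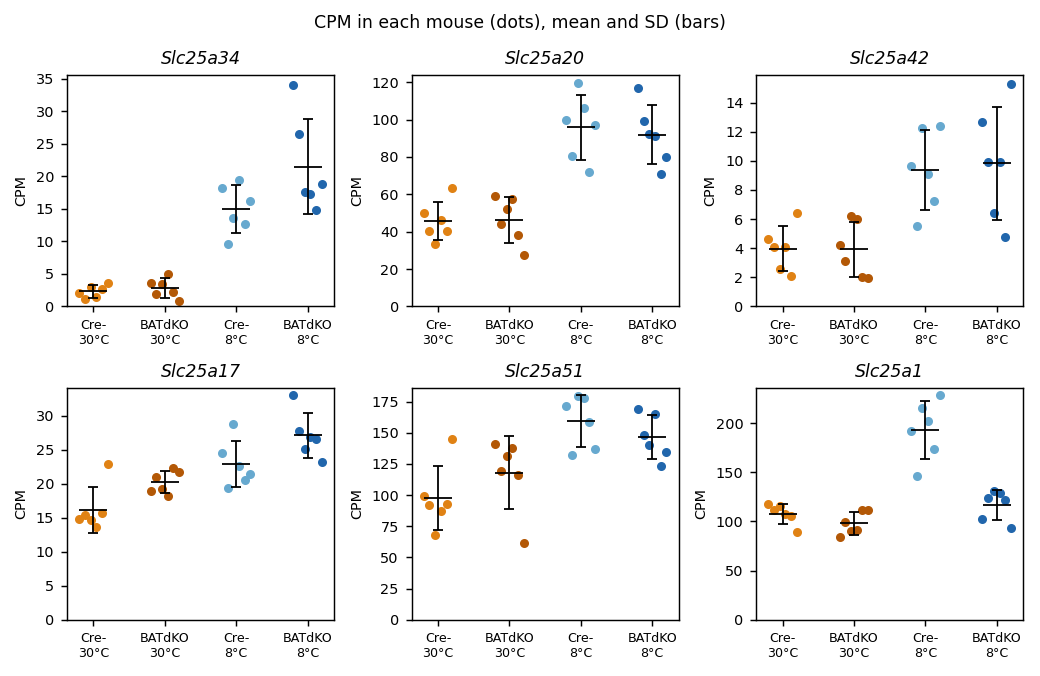
CPM of 6 carriers in each of 24 mice (dots), by label and temperature, with the mean and SD of 6 mice (bars); each axis starts at 0. Every mouse at 8°C lies above every mouse at 30°C for Slc25a34 and Slc25a20, and for Slc25a1 the 6 mice labelled Cre- at 8°C, from 146 to 229 CPM, lie above all other mice.

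Slc25a51, which supplies the matrix with NAD, rose under the Cre- label. It had 68.0 CPM in the lowest, 92.4 in the median and 145 in the highest mouse labelled Cre- at 30°C, and 132, 165 and 179.9 CPM at 8°C. The overlap came from mouse m6, the highest at 30°C. Its log2 fold change was 0.70 (SE 0.16, adjusted p = 0.00661 in edgeR), and without both m6 mice it was 0.85 (adjusted p = 3.18e-06). The latter value was bound to be larger, because the highest mouse at 30°C was left out, and is no independent support for the rise. Under the BATdKO label it ran from 61.6 to 141 CPM (median 125.5) at 30°C and from 124 to 169 CPM (median 144) at 8°C, a log2 fold change of 0.31 (SE 0.16, adjusted p = 0.314). The difference between both changes was -0.39 (SE 0.22, adjusted p = 0.675 in edgeR), and without both m6 mice -0.68 (SE 0.14, adjusted p = 0.0441). At 30°C m6 was the highest mouse labelled Cre- and the lowest labelled BATdKO for this gene. Leaving both out was therefore bound to enlarge the difference, and the latter call is no independent support for it. The exons of Slc25a51 overlap those of another annotated gene, Gm25692, on the same strand.

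Slc25a35, a close relative of Slc25a34 whose substrate is also not settled, had 1.89 to 8.20 CPM (median 4.79) in libraries labelled Cre- at 30°C and 4.52 to 10.2 CPM (median 8.11) at 8°C. The groups overlapped, and it rose by a log2 fold change of 0.86 (SE 0.27, adjusted p = 0.0526 in edgeR), which did not pass without mice m1 and m3 (adjusted p = 0.240). Under the BATdKO label the log2 fold change was 0.34 (SE 0.28, adjusted p = 0.589).

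Slc25a12, Slc25a14 and Slc25a40 fell. Slc25a12, the aspartate/glutamate carrier of muscle and brain, had 8.85 CPM in the lowest, 11.8 in the median and 50.9 in the highest mouse labelled Cre- at 30°C, and 8.76, 10.3 and 12.3 CPM at 8°C. Its log2 fold change was -0.96 (SE 0.31, adjusted p = 0.0605 in edgeR), with p = 0.240 in the exact permutation test (n = 6 per group). The highest values, 50.9 CPM in m3 and 25.3 CPM in m1, came from the mice with the highest muscle sums, and without both the log2 fold change was 0.12 (adjusted p = 0.786). Slc25a14, an uncoupling-protein-like carrier, had 1.37 to 2.97 CPM (median 1.69) in libraries labelled Cre- at 30°C and 0.643 to 1.53 CPM (median 1.23) at 8°C, from 1 to 23 counts and 4 to 13 counts. Its log2 fold change was -0.71 (SE 0.25, adjusted p = 0.0900 in edgeR), and the call was lost in 11 of 24 fits with a mouse left out, without both m6 mice (adjusted p = 0.124) and without m1 and m3 (adjusted p = 0.412). Slc25a40, the close relative of Slc25a39, had 5.69 to 8.54 CPM (median 7.34) in libraries labelled BATdKO at 30°C and 3.90 to 6.95 CPM (median 4.53) at 8°C. It fell by 0.50 on the log2 scale (SE 0.17, adjusted p = 0.0979 in edgeR), and it did not pass in 16 of the 24 fits or without both m6 mice (adjusted p = 0.167).

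**Figure D3:**
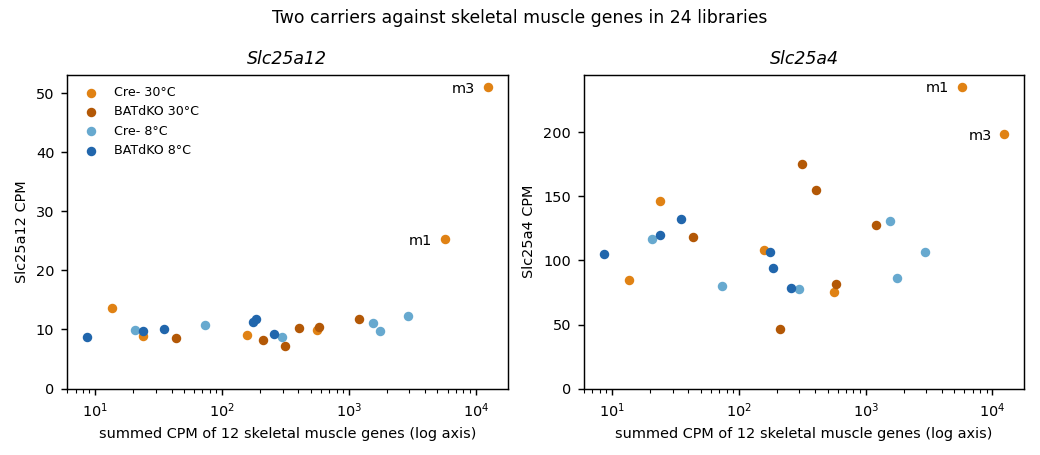
CPM of Slc25a12 and Slc25a4 against the summed CPM of 12 skeletal muscle genes (log axis) in 24 libraries, coloured by group. Mice m1 and m3 labelled Cre- at 30°C lie at the right with 25.3 and 50.9 CPM of Slc25a12 and 236 and 198.5 CPM of Slc25a4, and every other mouse has at most 13.7 CPM of Slc25a12.

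The ADP/ATP and phosphate carriers did not pass in edgeR in any comparison. Slc25a4, the ADP/ATP carrier of muscle and heart, had 75.3 CPM in the lowest, 127 in the median and 236 in the highest mouse labelled Cre- at 30°C, against 77.3, 96.3 and 131 CPM at 8°C. Its log2 fold change with temperature was -0.53 (SE 0.26, adjusted p = 0.261 in edgeR) under that label and -0.15 (SE 0.26, adjusted p = 0.831) under the BATdKO label. Without mice m1 and m3, the highest in Slc25a4 of all 24, the former was -0.09 (SE 0.25, adjusted p = 0.938). Its relative Slc25a5 had -0.20 to 0.93 as the 95% interval of the log2 fold change under the BATdKO label, and reads of Slc25a5 may be shared with near-identical copies. Slc25a3, which imports phosphate for ATP synthesis, had log2 fold changes of 0.15 (SE 0.10, adjusted p = 0.464) under the Cre- label and 0.28 (SE 0.10, adjusted p = 0.127) under the BATdKO label, which passed in DESeq2 (adjusted p = 0.0914). Slc25a39 changed by 0.13 (95% interval -0.03 to 0.29) and 0.19 (0.04 to 0.35), and neither passed.

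Calls in the other role groups were as follows. None of the 3 ATP-Mg/phosphate carriers passed with temperature, with log2 fold changes of -0.14 to -0.06 under the Cre- label and -0.06 to 0.18 under the BATdKO label. Among 6 carriers of amino acids Slc25a12 alone passed, and the glutamate carrier Slc25a22 had 0.87 (SE 0.36, adjusted p = 0.167 in edgeR) and 0.61 (SE 0.35, adjusted p = 0.393). Without both m6 mice Slc25a22 passed under the Cre- label at 1.18 (SE 0.34, adjusted p = 0.0283 in edgeR), as did the pyrimidine nucleotide carrier Slc25a33 at 0.46 (SE 0.17, adjusted p = 0.0989), and Slc25a48 passed under the BATdKO label at 0.45 (SE 0.13, adjusted p = 0.0570). At 30°C mouse m6 labelled Cre- was the highest of its group for Slc25a33 (7.72 CPM) and near the highest for Slc25a22 (10.6 CPM). Mouse m6 labelled BATdKO was the highest of its group for Slc25a48 (25.1 CPM). Leaving these mice out was bound to raise the changes, so these calls are no independent support for them. The liver-known Slc25a13 and Slc25a15 had -0.04 and -0.11 under the Cre- label and -0.00 and 0.08 under the BATdKO label. Among 4 carriers of metals and glutathione Slc25a40 alone passed, and the 4 erythroid markers, all globin genes, rose with cold under both labels, with a part in these values that was not tested. Of the 9 carriers of nucleotides and cofactors 3 passed under the Cre- label and 2 under the BATdKO label, and of the 5 carriers of di- and tricarboxylates and acylcarnitine 2 and 1 passed, beside 9.15% and 7.07% of all genes.

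**Figure D4:**
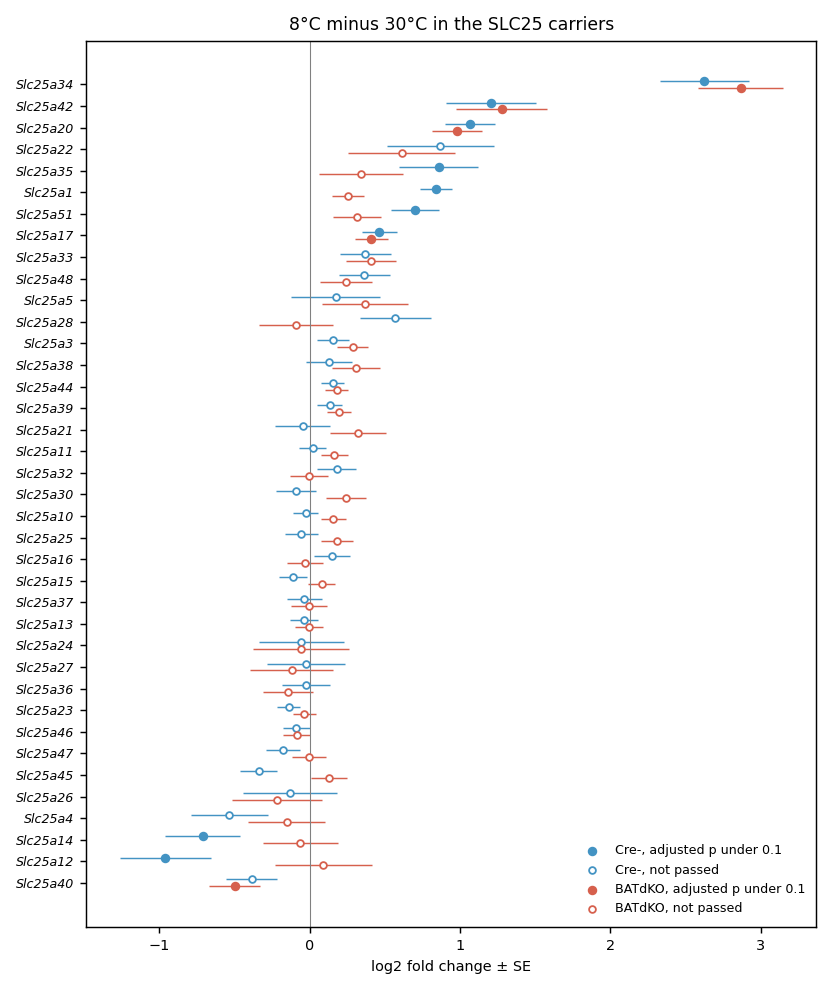
Log2 fold change between 8°C and 30°C with its SE for the carriers under the Cre- label (blue) and the BATdKO label (red), ordered by the mean of both; filled dots passed an adjusted p of 0.1. Slc25a34 stands at 2.63 and 2.87, Slc25a42 and Slc25a20 lie near 1 under both labels, and most other dots are within 0.5 of 0.

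Genes around the family gave these values with cold. Of 5 carrier-fold proteins with other symbols 3 rose under both labels, namely Ucp1 by 3.10 (SE 0.44) and 2.54 (SE 0.43), Ucp3 by 1.79 (SE 0.39) and 1.17 (SE 0.36), and the outer membrane insertase Mtch2 by 0.44 (SE 0.07) and 0.42 (SE 0.07) on the log2 scale. Ucp2 and Mtch1 did not pass. Of 13 genes of the machinery that imports carrier proteins, Timm10 (0.35) and Tomm40 (0.70) rose under the Cre- label and Timm8a1 (0.35) under the BATdKO label. Of 12 other membrane transporters, Mpc2, a subunit of the mitochondrial pyruvate carrier, rose by 1.09 (SE 0.16) and 0.99 (SE 0.16), Sfxn5 by 0.70 (SE 0.10) and 0.55 (SE 0.10), and Sfxn1 by 0.23 (SE 0.06) under the BATdKO label. The difference between the changes of Sfxn1 under both labels was 0.18 (adjusted p = 0.629 in edgeR). Of 24 respiratory chain subunits 4 rose under the Cre- label (Uqcrc1, Sdha, Ndufv2 and Atp5a1, by 0.32 to 0.47) and 2 under the BATdKO label (Ndufa9 by 0.34 and Atp5b by 0.54). Of the 12 brown adipocyte markers 6 rose under both labels and Adipoq fell. Of 9 endothelial markers 4 rose under the Cre- label (Emcn, Kdr, Flt1 and Pecam1; median of the list 0.44) and 2 under the BATdKO label (Emcn and Kdr; median 0.03). All 12 skeletal muscle genes had values below 0 with cold under both labels (medians -2.09 and -2.13), of which Myl1 and Actn3 passed under the Cre- label and none under the BATdKO label. The part of these markers in the carrier values was not tested.

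The comparison of labels at 8°C asks which carriers differ with the deletion in the cold. It gave 2 of 39 members, against 1.82% of all genes. The citrate carrier Slc25a1 was lower in libraries labelled BATdKO, as were 1.12% of all genes, and Slc25a45 was higher, as were 0.697%. The median log2 fold change of the members was 0.04, beside -0.00 for all genes. Upstream bases of both genes are printed by the rules given above. Slc25a1 is at chr16:17925223-17928219 on the minus strand, with the stretch at chr16:17928220-17928469, and capitals mark the E-box CACGTG. Slc25a45 is at chr19:5877808-5885878 on the plus strand, with the stretch at chr19:5877572-5877807, and capitals mark AGGTCA.
Slc25a1: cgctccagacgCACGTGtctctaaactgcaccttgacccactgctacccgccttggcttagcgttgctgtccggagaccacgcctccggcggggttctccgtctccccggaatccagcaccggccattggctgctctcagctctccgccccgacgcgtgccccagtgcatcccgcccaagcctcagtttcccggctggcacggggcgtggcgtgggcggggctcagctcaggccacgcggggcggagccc
Slc25a45: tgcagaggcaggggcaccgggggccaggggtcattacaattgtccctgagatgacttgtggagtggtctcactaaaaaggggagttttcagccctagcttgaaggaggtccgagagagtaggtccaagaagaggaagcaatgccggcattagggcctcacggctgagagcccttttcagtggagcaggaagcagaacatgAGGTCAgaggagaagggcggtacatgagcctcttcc

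The E-box of Slc25a1 begins 239 bases before the start site. CACGTG was in 7.15% of all promoters. Counted by gene, it was in 11.7% of the genes tested here that had a window and in 6 of the 30 members (Slc25a1, Slc25a13, Slc25a14, Slc25a15, Slc25a33 and Slc25a36). The AGGTCA of Slc25a45 begins 50 bases before its start site.

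Slc25a1 exports citrate, the source of cytosolic acetyl-CoA for fatty acid and sterol synthesis. It had 88.8 CPM in the lowest, 109.99 in the median and 117.5 in the highest mouse labelled Cre- at 30°C, and 146, 197 and 229 CPM at 8°C. In libraries labelled BATdKO it had 84.2, 95.6 and 112 CPM at 30°C and 92.9, 123 and 131 CPM at 8°C. At 8°C all 6 mice labelled BATdKO were below all 6 labelled Cre-, and groups without overlap were found for 1.95% of all genes in this comparison. The means were 117 and 193 CPM, a log2 fold change of -0.72 (SE 0.10, adjusted p = 0.000173 in edgeR) with p = 0.0021645 in the exact permutation test (n = 6 per group). At 30°C the log2 fold change between labels was -0.14 (SE 0.11, adjusted p = 0.714).

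With temperature Slc25a1 rose by 0.84 on the log2 scale (SE 0.11, adjusted p = 5.19e-06 in edgeR) under the Cre- label, with no overlap, and changed by 0.25 (SE 0.10, adjusted p = 0.192) under the BATdKO label. The difference of these changes was -0.59 (SE 0.15). Over all genes it did not pass in edgeR (adjusted p = 0.168), and it passed in DESeq2 (adjusted p = 0.0520) and in edgeR without mouse m2 labelled Cre- at 8°C (adjusted p = 0.0503). The call between labels at 8°C passed in each of the 24 fits that left out a mouse, with log2 fold changes from -0.79 to -0.66.

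Slc25a45, a carrier of the list with unsettled substrates, had 10.5 CPM in the lowest, 12.7 in the median and 13.4 in the highest mouse labelled Cre- at 8°C, and 14.5, 16.6 and 19.3 CPM in those labelled BATdKO. The groups did not overlap, and the log2 fold change was 0.45 (SE 0.12, adjusted p = 0.0786 in edgeR). In 9 of the 24 fits that left out a mouse it did not pass. At 30°C the mice labelled Cre- had 12.1 to 18.2 CPM (median 16.8) and those labelled BATdKO 11.2 to 19.3 CPM (median 15.5), and the log2 fold change was -0.02 (SE 0.12).

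Members with an unadjusted p under 0.05 at 8°C numbered 5, against 9.24% of all genes. Beside the 2 called they were the peroxisomal Slc25a17 at 0.24 (SE 0.11, adjusted p = 0.510), the iron carrier Slc25a28 at -0.54 (SE 0.24, adjusted p = 0.454) and the pyrimidine nucleotide carrier Slc25a36 at -0.42 (SE 0.16, adjusted p = 0.334) in edgeR. Of the pathway genes Sfxn5 was lower in libraries labelled BATdKO (43.3 against 55.2 CPM, log2 fold change -0.35, SE 0.09, adjusted p = 0.0696), and no gene of the import machinery, no respiratory chain subunit and no carrier-fold protein passed. Of 12 brown adipocyte markers Adrb3 alone passed, lower in libraries labelled BATdKO (median of the list 0.03). Of 2 B cell markers Ighm passed, higher in libraries labelled BATdKO. All 12 hepatocyte markers lay above 0 (median 0.09), and none passed. All 12 skeletal muscle genes had lower values in libraries labelled BATdKO at 8°C (median log2 fold change -3.09). None of these passed, and 11 had an unadjusted p under 0.05. Slc25a12 and Slc25a4, the members known from muscle, had -0.04 (SE 0.32) and 0.09 (SE 0.26) there.

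At 30°C no member and no gene passed in edgeR, in which 0.0% of all genes were called. An unadjusted p under 0.05 was found for 3 members and for 1303 genes (10.4%). The 3 were Slc25a12 at -1.09 (SE 0.31, adjusted p = 0.169), the uncoupling-protein-like Slc25a30 at -0.36 (SE 0.13, adjusted p = 0.315) and Slc25a17 at 0.29 (SE 0.11, adjusted p = 0.361). DESeq2 called 90 genes and no member. Without both m6 mice 500 genes and 3 members passed in edgeR. The members were Slc25a51 at 0.55 (adjusted p = 0.00504), Slc25a12 at -1.23 (adjusted p = 0.0265) and Slc25a17 at 0.40 (adjusted p = 0.0342). Both m6 mice lay within the range of the other label for Tbl1xr1 and Tbl1x, and leaving them out was liable to widen differences between labels. These calls are therefore no independent support for such differences. The values of Slc25a12 that stood apart were those of m1 and m3 labelled Cre-, with 25.3 and 50.9 CPM, whereas the other mice labelled Cre- had 8.85 to 13.7 CPM and overlapped those labelled BATdKO, at 7.15 to 11.8 CPM. The exact permutation test over all 12 mice gave p = 0.0974 (two-sided, n = 6 per group), and without m1 and m3 the log2 fold change of Slc25a12 was 0.00 (SE 0.12, adjusted p = 1.00 in edgeR). All 12 skeletal muscle genes also had lower values in libraries labelled BATdKO at 30°C (median log2 fold change -3.10), with 10 at an unadjusted p under 0.05 and none past the threshold, and their part in this value was not tested.

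The test of the difference between both temperature changes called no member in edgeR and 0.0961% of all genes (12 genes). DESeq2 called 51 genes, with Slc25a1 as the 1 member. An unadjusted p under 0.05 was found for 3 members, Slc25a1, Slc25a12 at 1.05 (SE 0.44, adjusted p = 0.542) and Slc25a45 at 0.47 (SE 0.17, adjusted p = 0.485), against 8.05% of all genes. Without mice m1 and m3 labelled Cre- at 30°C the value of Slc25a12 was -0.04 (SE 0.19, adjusted p = 0.994 in edgeR). For Slc25a20 the difference was -0.09 (95% interval -0.54 to 0.37) and for Slc25a42 it was 0.07 (95% interval -0.76 to 0.91). Without both m6 mice these were -0.34 (SE 0.19) and -0.29 (SE 0.41), that of Slc25a34 was -0.15 (SE 0.39), and Slc25a51 passed as given above.

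**Figure D5:**
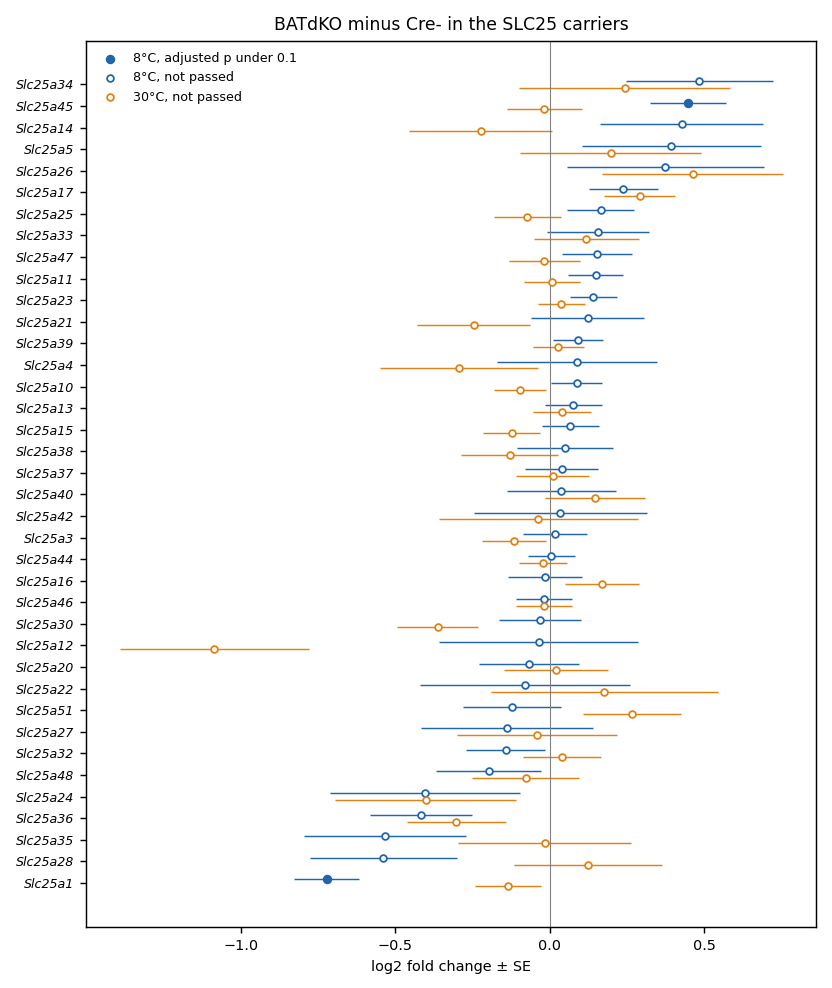
Log2 fold change between the BATdKO and Cre- labels with its SE for the carriers at 8°C (blue) and 30°C (orange), ordered by the value at 8°C; filled dots passed an adjusted p of 0.1. Slc25a1 at -0.72 and Slc25a45 at 0.45 are the filled dots at 8°C, and no dot is filled at 30°C, where Slc25a12 lies lowest at -1.09.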

How the data were processed

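RNA of tissue labelled brown fat from 24 mice was analysed from raw counts per gene. The authors deposited these without normalization after trimming with BBDuk, alignment to GRCm38 with STAR and counting with Rsubread. Libraries were made with Lexogen QuantSeq 3′ FWD. The annotation release, strand setting and rule for leaving out genes are not given in the sources used here.

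Counts were fitted with edgeR 4.0.16 and limma 3.58.1 (R 4.3.3) after TMM normalization and filterByExpr, which removed 130 genes. One quasi-likelihood fit of all 24 libraries held a coefficient per group (4 groups). P-values were adjusted by Benjamini-Hochberg over all 12485 genes, with the study's threshold of 0.1. The SE is the absolute log2 fold change over the root of F. The 95% intervals take this SE under a normal distribution and are somewhat narrower than the F test implies. Exact permutation tests were two-sided over 924 assignments. DESeq2 1.42.0, RLE normalization, no filter, robust dispersion, a minimum of 10 for the mean normalized count, fits with the compared groups alone, a threshold of 0.05 and leaving out each mouse were the alternatives. Leaving out both m6 mice at 30°C, or mice m1 and m3 labelled Cre- at 30°C, was added after seeing the data. So were the searches for AGGTCA and the E-box. The steps were tested on simulated data.

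The members and lists were chosen with earlier results of these data known. Named genes are members with an adjusted p under 0.1 in any comparison, the 8 of highest mean CPM, both deleted genes, and the pathway genes that passed; others were named after their values were seen. Mice are numbered m1 to m6 within a group, and p-values measure the spread between mice. Positions are from GENCODE vM21; exons of 2 members overlap another gene on their strand and of 11 on the other strand, where reads could not be told apart if strand was not used. Values of 1 member are not reported here or plotted singly.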

Additional observations from a re-analysis of the deposited data

Results flagged for a closer look

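In each group of 6 mice a member was marked where 1 mouse stood apart from the other 5 by Dixon's criterion. This held in 13 of 156 groups of member and mice, and chance marks about 1 in 20 groups.

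At 30°C mouse m6 labelled BATdKO was lowest for Slc25a3 (95.4 CPM, the others from 142 CPM) and for Slc25a51 (61.6 CPM, the others from 116 CPM), and mouse m6 labelled Cre- was highest for Slc25a17 (23.0 CPM, the others up to 15.7 CPM). Among mice labelled BATdKO at 30°C, m1 was highest for Slc25a24 (3.66 CPM) and m3 for Slc25a27 (2.78 CPM). Slc25a26 had 0 counts in m4 labelled Cre- at 30°C, the shallowest library. At 8°C mouse m3 labelled Cre- was highest for Slc25a3 (204.3 CPM, the others up to 166 CPM) and for Slc25a44 (82.3 CPM, the others up to 69.4 CPM), m2 was highest for Slc25a25 (34.0 CPM), and m5 was lowest for Slc25a22 (5.02 CPM, the others from 10.2 CPM). Among mice labelled BATdKO at 8°C, m5 was lowest for Slc25a5 (52.4 CPM, the others from 81.1 CPM), m3 was highest for Slc25a16 (16.2 CPM) and m1 for Slc25a26 (5.66 CPM, which is 13 counts).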

How the results depend on the processing

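The number of members passing at 8°C between labels was 1 at an adjusted p of 0.05. The number for the difference of temperature changes was 1 in DESeq2 and 1 without both m6 mice at 30°C. Between labels at 30°C it was 3 without both m6 mice, and with cold under the Cre- label it was 5 without mice m1 and m3, where Slc25a12 turned from -0.96 to 0.12. In the 24 fits that each left out a mouse, members passing ran from 1 to 2 between labels at 8°C, from 0 to 2 at 30°C, from 6 to 10 with cold under the Cre- label, from 4 to 7 under the BATdKO label and from 0 to 1 for the difference. Totals over all genes are given above for only some of the alternative fits. Whether these counts of members moved with the share of all genes passing was not tested. Slc25a14 with cold under the BATdKO label, which passed in no fit, went from -0.06 to between -0.18 and 0.060, with the positive value without mouse m6 labelled BATdKO at 8°C. Calls lost in single fits were those of Slc25a12 (4 fits), Slc25a14 (11), Slc25a35 (4), Slc25a40 (16) and Slc25a45 (9); the causes were not tested. Slc25a34, Slc25a20, Slc25a42 and Slc25a17 under both labels, and Slc25a1 and Slc25a51 under the Cre- label, passed in all 24 such fits. Calls with cold were also lost under the other settings, leaving out either pair of mice among them. Under the Cre- label Slc25a12 lost its call in 2 of 8 settings and changed sign in 1. Slc25a14 lost it in 4 of 7, and Slc25a17 and Slc25a35 in 1 of 8 each. Under the BATdKO label Slc25a40 lost it in 3 of 8. The difference of changes has no fit with the compared groups alone. No paired analysis was possible because the labels share no replicate numbers between groups. Depth limits the 4 members under 3 CPM, for which small changes were not detectable.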
